A study of Mus musculus with 11 samples.

Results

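Aminoacyl-tRNA synthetases, the enzymes that join each amino acid to its transfer RNA, were measured as mRNA in whole mouse livers in which an active form of YAP was switched on for 3 or 7 days. The 36 genes were taken by symbol from a table of 20893 genes, and they comprised 20 enzymes of the cytosol and 16 of the mitochondrion, whose symbols end in 2. All 36 passed the filter on low values (at least 0.5 eRPKM in at least 3 livers), which left 14244 genes for testing. The values are eRPKM, exon read counts scaled to exon length in kilobases and to the size of the library.

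Bulk RNA-seq was made from 11 livers, 1 library per mouse, all on a C57BL/6 background and all carrying ROSA26-rtTA-IRES-EGFP. The 4 control livers had no YAP transgene (WT in the labels) and the mice had eaten doxycycline food for 7 days. The 4 YAP 3 d livers and the 3 YAP 7 d livers also carried tetYAP and had received doxycycline food for 3 and 7 days. No control had 3 days of doxycycline food. In comparisons with YAP 3 d livers, days on doxycycline therefore cannot be told apart from days of YAP. According to the study's methods, a Cre recombinase driven by the albumin promoter, which is active in hepatocytes, permits expression of the transactivator rtTA, and doxycycline then switches on a YAP transgene whose protein product is mutated to resist inhibitory phosphorylation. Cells of the liver other than hepatocytes are therefore not the intended site of YAP expression, although whole tissue was sequenced. The ages of these mice are not given in the sources used here, and no source says which livers came from the same litter or cage.

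Each synthetase recognises 1 amino acid and the transfer RNAs that carry it, so the set of enzymes together supplies the ribosome with charged transfer RNA. Protein synthesis in the cytosol and in the mitochondrial matrix uses separate enzymes for most amino acids, all encoded in the nucleus. Glycyl- and lysyl-tRNA synthetase (Gars, Kars) serve both compartments from a single gene, and glutamyl- and prolyl-tRNA synthetase of the cytosol are joined in 1 polypeptide (Eprs). Several cytosolic enzymes are held in a multisynthetase complex with the scaffold proteins Aimp1, Aimp2 and Eef1e1. When amino acids are scarce, uncharged transfer RNA activates the kinase Gcn2 (Eif2ak4), and the transcription factor ATF4 raises the mRNA of many cytosolic synthetases through C/EBP-ATF elements in their promoters. The liver makes most plasma proteins and so has a heavy use of charged transfer RNA.

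Promoter sequence was at hand in the RefSeq table (build GRCm38.p6) for 27 of the 36 genes, 13 cytosolic and 14 mitochondrial. Cars, Hars, Lars, Nars, Rars, Vars, Wars, Hars2 and Pars2 had no entry. In windows from 250 bases before to 50 bases after the annotated start, the amino acid response element TGATGNAA, searched on both strands, was found in 5 of 13 cytosolic and 0 of 14 mitochondrial genes, against 4.511% of all genes of the table. These 5 windows are shown first, as stretches from 130 bases before to 30 bases after the start, because the values of their genes did not follow a single pattern after YAP induction. Capitals mark the element on either strand.
Gars, chr6:55037871-55038030, plus strand: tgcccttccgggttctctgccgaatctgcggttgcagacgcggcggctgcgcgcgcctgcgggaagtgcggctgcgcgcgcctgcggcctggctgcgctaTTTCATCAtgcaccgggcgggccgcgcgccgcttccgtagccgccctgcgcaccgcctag
Iars, chr13:49682000-49682159, plus strand: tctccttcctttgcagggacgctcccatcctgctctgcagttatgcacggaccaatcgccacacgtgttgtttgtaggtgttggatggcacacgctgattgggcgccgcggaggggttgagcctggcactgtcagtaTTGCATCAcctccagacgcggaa
Yars, chr4:129189773-129189932, plus strand: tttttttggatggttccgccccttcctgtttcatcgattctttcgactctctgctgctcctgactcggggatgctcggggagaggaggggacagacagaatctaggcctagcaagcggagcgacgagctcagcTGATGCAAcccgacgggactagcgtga
Aars, chr8:111033712-111033871, plus strand: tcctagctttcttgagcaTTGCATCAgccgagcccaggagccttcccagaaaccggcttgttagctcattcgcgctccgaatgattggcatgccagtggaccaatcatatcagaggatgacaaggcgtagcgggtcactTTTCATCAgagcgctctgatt
Tars, chr15:11399629-11399788, minus strand: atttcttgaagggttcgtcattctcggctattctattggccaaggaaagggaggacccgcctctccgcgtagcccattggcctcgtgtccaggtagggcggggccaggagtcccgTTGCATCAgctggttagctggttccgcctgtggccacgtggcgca
Gars, Iars and Yars had the positive 7-day differences given below, whereas Aars and Tars had negative ones. The element lay 30 bases upstream of the start in Gars and 15 bases upstream in Tars. In Aars it began 112 bases upstream and again at base 10 of the gene, in Iars at base 8 and in Yars at base 4.

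The next windows, in lower case throughout, belong to the called genes of 7 days that were in the RefSeq table and held no such element, a cytosolic and a mitochondrial enzyme.
Farsa, chr8:84856856-84857015, plus strand: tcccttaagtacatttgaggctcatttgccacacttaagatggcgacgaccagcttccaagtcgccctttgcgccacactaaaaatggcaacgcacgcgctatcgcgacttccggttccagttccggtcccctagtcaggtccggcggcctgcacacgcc
Mars2, chr1:55237047-55237206, plus strand: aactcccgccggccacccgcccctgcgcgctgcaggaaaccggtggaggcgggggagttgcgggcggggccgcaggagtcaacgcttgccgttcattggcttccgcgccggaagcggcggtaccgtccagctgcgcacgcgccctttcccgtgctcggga
The letters GCGCATGC, the core of the element of NRF1, a factor of nuclear genes for mitochondria, were in 3 of 14 mitochondrial and 0 of 13 cytosolic genes, against 3.049% of genes. Those 3 windows are shown with the letters in capitals to set them beside the cytosolic ones.
Rars2, chr4:34614827-34614986, plus strand: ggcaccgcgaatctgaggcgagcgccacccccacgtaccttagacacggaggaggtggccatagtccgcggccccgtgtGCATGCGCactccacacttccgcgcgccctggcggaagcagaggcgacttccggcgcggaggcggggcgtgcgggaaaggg
Vars2, chr17:35667563-35667722, minus strand: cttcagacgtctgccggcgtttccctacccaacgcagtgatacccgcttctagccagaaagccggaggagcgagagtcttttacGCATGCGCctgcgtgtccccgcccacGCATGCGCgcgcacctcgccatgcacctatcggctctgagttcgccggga
Wars2, chr3:99140960-99141119, plus strand: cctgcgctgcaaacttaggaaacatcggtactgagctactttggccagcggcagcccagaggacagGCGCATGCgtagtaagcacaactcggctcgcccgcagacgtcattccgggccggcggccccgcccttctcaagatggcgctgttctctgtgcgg
None of these 3 genes was called at either time. The core of the TEAD element, GGAATG, through which YAP reaches DNA, was in 2 of 13 cytosolic genes (Aars, Dars) and 4 of 14 mitochondrial genes (Ears2, Tars2, Wars2, Yars2), against 16.581% of genes. The E-box CACGTG was in 4 of 13 cytosolic genes (Aars, Farsb, Iars, Tars) and in Ears2, against 8.093% of genes. A match of letters is a description and not a bound site.

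The libraries held between 1251396 and 5941357 reads on genes, counted back from the whole-read steps in the eRPKM values. The 3 YAP 7 d libraries held 5312486 to 5941357 reads, and the controls 1251396 to 5495697. Each synthetase rested on between 6 reads (Pars2 in control liver 4) and 2049 reads (Eprs in YAP 7 d liver 1) in a library, and the intervals below cover the spread between livers. By Xist against the Y-linked Ddx3y, 2 of 4 control, 2 of 4 YAP 3 d and 3 of 3 YAP 7 d livers were female. Column names mark YAP 3 d livers 1 and 4 and YAP 7 d liver 2 with MF, whose meaning is not given. The YAP targets Cyr61, Ctgf, Ankrd1 and Amotl2 were called higher at 7 days in 4 of 4 cases (median log2 fold change 3.38).

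In control livers the highest levels were those of cytosolic enzymes and the lowest those of mitochondrial ones, with the compartments interleaved between. Per kilobase, the highest control means were those of Tars (61.2 ± 4.29 eRPKM, SD, n = 4), Nars (57.1 ± 3.77) and Dars (55.1 ± 1.58), the threonyl-, asparaginyl- and aspartyl-tRNA synthetases, and neighbours in this order differed by no more than the larger SD of the pair. Eprs (46.7 ± 5.04) and Aars (45.7 ± 4.43), for alanine, followed and could not be ordered. The lowest control means were those of the mitochondrial enzymes Pars2 (2.6 ± 0.747), Sars2 (3.52 ± 0.613) and Mars2 (4.03 ± 0.724), for proline, serine and methionine. Lars2, the mitochondrial leucyl-tRNA synthetase, had the highest mean of its compartment (32.3 ± 18.2), with 57.3 in control liver 4. It was followed by Fars2 (20.5 ± 2.53) and Iars2 (18.7 ± 2.36), for phenylalanine and isoleucine, which stood above the cytosolic Wars (8.31 ± 1.21) and Farsa (7.22 ± 2.19). At 7 days Nars headed the order (68.2 ± 10.4, n = 3), Gars and Vars had moved from places 13 and 23 to places 4 and 5 (45.8 ± 10.5 and 40.4 ± 9.26), and Wars2, for tryptophan, was last (5.96 ± 0.624). Gars and Vars could not be ordered against Eprs (47.7 ± 5.22) or Kars (39.6 ± 7.54) at 7 days, nor Wars2 against Pars2 (6.46 ± 0.646). Over all 11 livers the highest cytosolic mean was that of Nars, with the lowest that of Farsa.

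After 7 days 5 of the 36 synthetases rose and none fell on the deposited scale. They were Vars, Farsa and Wars in the cytosol and Mars2 and Pars2 in the mitochondrion, by 0.91 to 1.75 on the log2 scale, at an adjusted p under 0.01 and a log2 fold change above 0.5 in a limma fit of log2(eRPKM + 0.5) over all genes. These 5 are 13.9% of the set, against 18% of all genes tested called higher and 5.77% called lower, so the share of synthetases called was not above that of genes in general. The median log2 fold change of the 36 was 0.28 and that of all genes 0.26, with 19 of 36 above the median of all genes. In 14 of 36 every YAP 7 d liver stood above every control (36.7% of all genes), and in 3, Dars, Fars2 and Nars2, every one stood below (13.3% of all genes). Against 0, 28 were positive and 8 negative, but 20 and 16 with size factors computed as medians of ratios, which bring the median of all genes to 0.03, and 17 and 19 after quantile normalization, which brings it to -0.08. The calls moved as well, to 3 higher (Vars, Mars2, Pars2) and 1 lower (Fars2) with size factors, and to 1 higher (Vars) and 4 lower (Dars, Fars2, Hars2, Nars2) after quantile normalization.

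**Figure D1:**
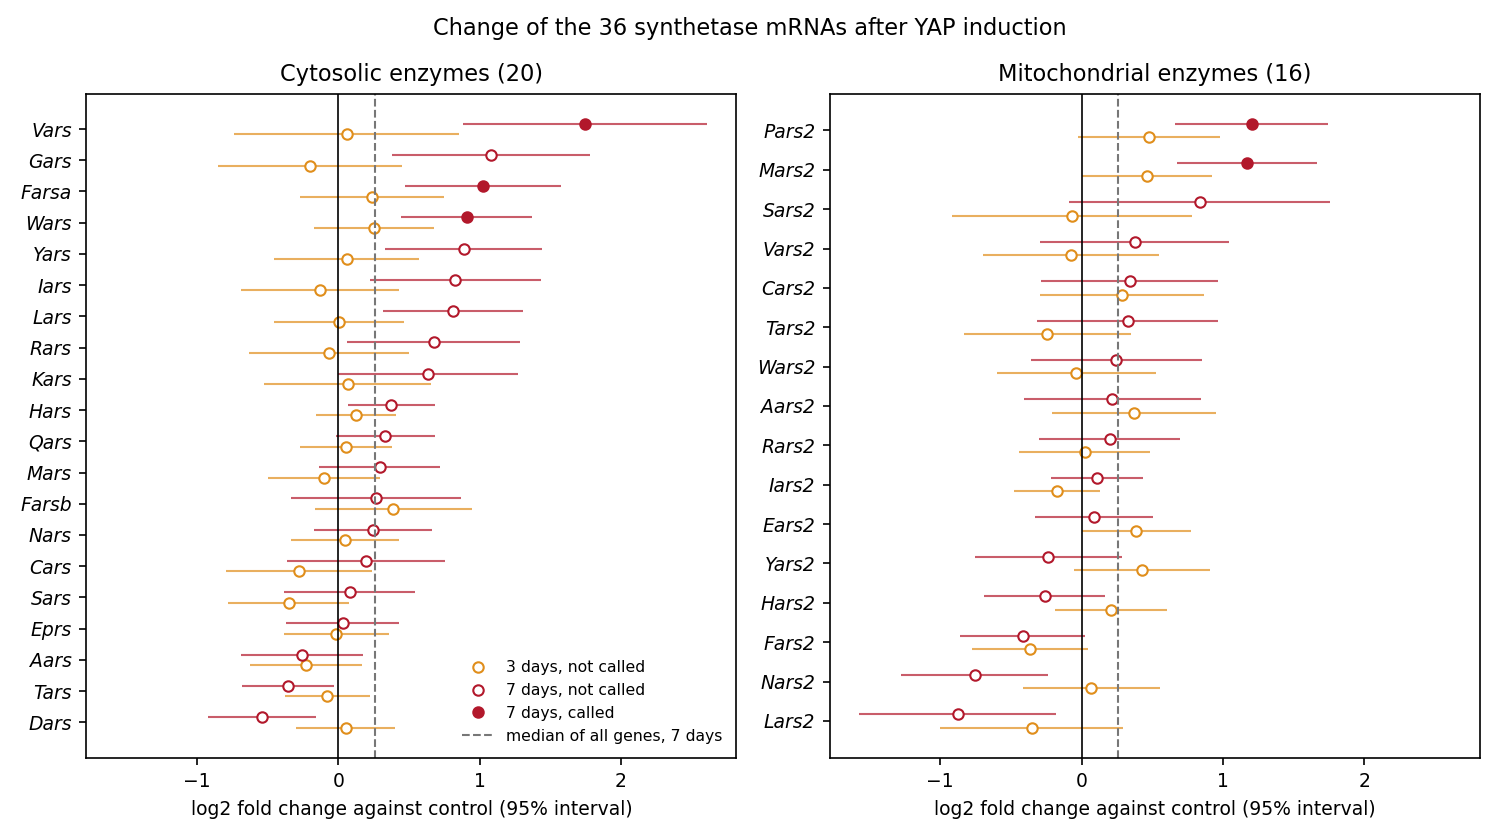
Log2 fold change on the log2(eRPKM + 0.5) scale against control for the 20 cytosolic (left) and 16 mitochondrial (right) synthetases, with 95% intervals from the fit, at 3 days (orange) and 7 days (red). Filled points are called; the dashed line is the median of all genes at 7 days, 0.26, and the 5 filled points, Vars, Farsa, Wars, Pars2 and Mars2, all lie above 0.9.

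Vars, the valyl-tRNA synthetase (mm9 chr17:35137932-35153267, plus strand), had the largest log2 fold change of the set. Its levels were 10.5, 12.8, 15.3 and 8.41 eRPKM in the 4 controls, 5.38, 13.6, 26.4 and 10.4 in the YAP 3 d livers, and 43.2, 30.1 and 48.0 in the YAP 7 d livers. All 3 YAP 7 d livers stood above every other liver, and YAP 3 d livers spread over a wider range than the controls. The log2 fold change at 7 days stood at 1.75 (SE 0.398, adjusted p = 0.00424), and at 0.06 after 3 days. The exons of Vars overlap those of D17H6S56E-5, and reads were counted without strand, so reads of the overlap cannot be told apart. The same holds for Hars with Hars2, Mars with Ddit3, and for Aars, Cars, Farsb, Yars, Ears2, Iars2 and Nars2 with other genes.

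Farsa encodes the alpha chain of the cytosolic phenylalanyl-tRNA synthetase (mm9 chr8:87380888-87393156, plus strand). It had 6.83, 9.38, 8.34 and 4.33 eRPKM in controls, 6.77 to 10.2 in the YAP 3 d livers, and 14.4, 12.1 and 18 at 7 days. The groups of 7 days and control did not overlap, which gave 1.02 on the log2 scale (SE 0.254, adjusted p = 0.00707). Farsb, the beta chain of the same enzyme, did not pass the test at 7 days (log2 fold change 0.27, 95% interval -0.33 to 0.87). Its levels overlapped between all 3 groups.

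Wars, the cytosolic tryptophanyl-tRNA synthetase (mm9 chr12:110098240-110132384, minus strand), is also known as a gene induced by interferon gamma. It had 9.73, 8.86, 7.06 and 7.58 eRPKM in controls, 8.34, 9.10, 9.33 and 13.6 in the YAP 3 d livers, and 17, 12.6 and 18.7 in the YAP 7 d livers. Every YAP 7 d liver was above every control, and YAP 3 d liver 4 was above YAP 7 d liver 2. Its difference at 7 days was 0.91 on the log2 scale (SE 0.213, adjusted p = 0.00502). Of 9 other tested genes of the interferon gamma response, none was called higher and 1, the chemokine Cxcl9, fell (log2 fold change -2.10, adjusted p = 0.00515). Of all genes 18% were called higher and 5.77% lower. Ido1, also listed, did not pass the filter, with 0 to 0.32 eRPKM in controls and 0.353 to 0.734 at 7 days. The cause of the Wars difference was not tested.

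Mars2, the mitochondrial methionyl-tRNA synthetase (mm9 chr1:55294021-55296902, plus strand), had 4.23, 4.47, 4.47 and 2.96 eRPKM in controls. The YAP 3 d livers had 4.04, 6.68, 6.49 and 5.94, and the YAP 7 d livers 9.93, 8.38 and 10.6. The YAP 7 d livers stood above all other livers, and 3 of 4 YAP 3 d livers stood above every control. The log2 fold change was 0.47 at 3 days, which did not pass the test (adjusted p = 0.41), and 1.17 at 7 days (SE 0.229, adjusted p = 0.00166).

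Pars2, the mitochondrial prolyl-tRNA synthetase (mm9 chr4:106323674-106327887, plus strand), was the lowest member of the set over all livers. Its levels were 2.91, 3.21, 2.75 and 1.51 eRPKM in controls, 3.19, 3.39, 4.03 and 4.28 at 3 days, and 6.36, 7.16 and 5.88 at 7 days. The groups of 7 days and control did not overlap, and the YAP 3 d values lay between them with an overlap by 1 liver. Pars2 stood 1.20 higher on the log2 scale (SE 0.249, adjusted p = 0.00233). For all 5 genes the exact two-sided permutation test of 7 days against control gave p = 0.0286, the smallest value that 4 against 3 livers allow. The 5 were called on these same livers, so this p adds no separate support. Gars and Dars, which were not called, had the same exact p. Of all genes 36.7% stood above and 13.3% below the controls without overlap.

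**Figure D2:**
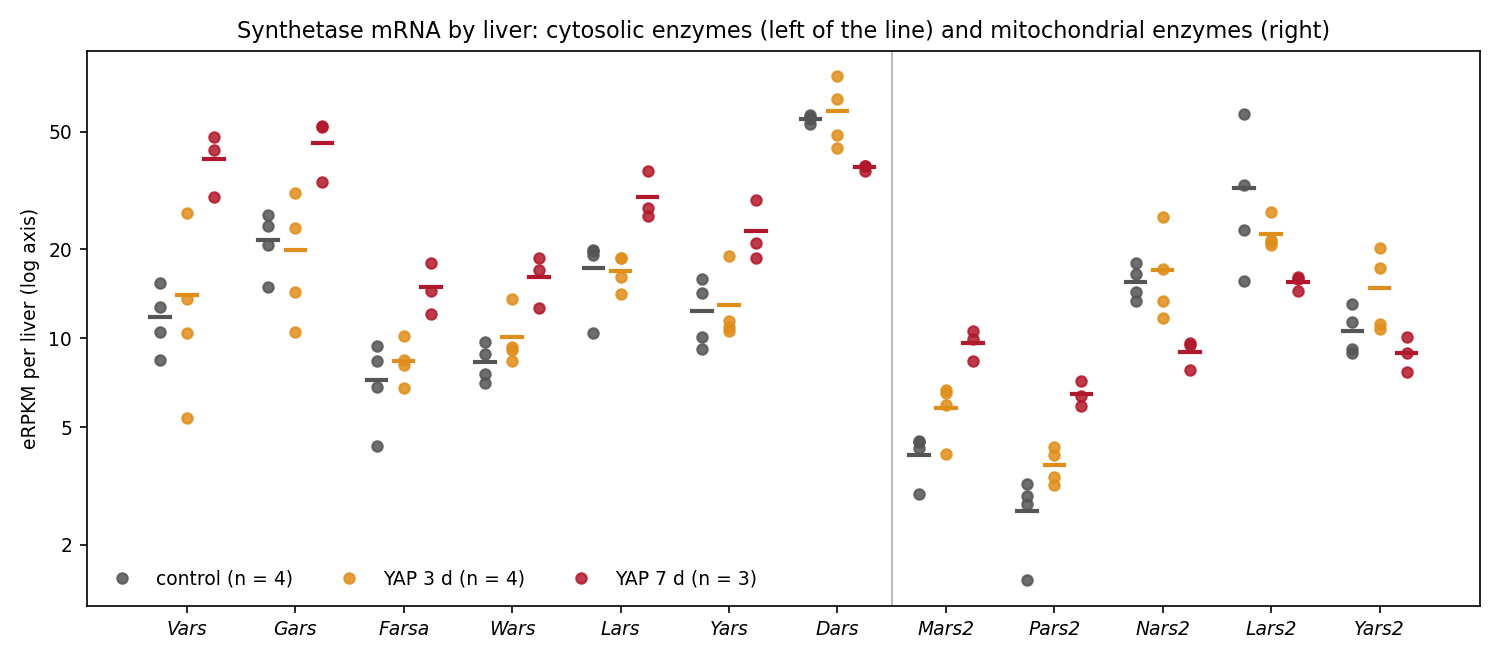
eRPKM in every liver on a log axis for 7 cytosolic and 5 mitochondrial synthetases, with points for livers and a bar for the mean of each group (grey control, orange YAP 3 d, red YAP 7 d). In Vars, Gars, Farsa, Lars, Mars2 and Pars2 the 3 red points lie above all others, while in Dars and Nars2 they lie below.

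The depth of the libraries moved with these results. Control liver 4 had the fewest reads and the lowest value of all controls for Vars, Farsa, Mars2 and Pars2. With log2 depth as a covariate 0 of 36 passed the thresholds, with 9 at an unadjusted p under 0.05, and the 5 genes kept positive log2 fold changes between 0.62 and 1.42 (adjusted p from 0.0206 to 0.107). With log2 Xist as a covariate Mars2 and Pars2 were called, and in the female livers alone Mars2 (log2 fold change 1.02). The part of depth and sex in these differences was not tested further.

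Several further cytosolic enzymes were high at 7 days without passing the test. They were picked after their values were seen. Gars had 20.6, 24.0, 26.1 and 14.9 eRPKM in controls, 10.5, 23.5, 30.9 and 14.3 at 3 days, and 52.0, 33.6 and 51.7 at 7 days. The YAP 7 d livers exceeded all others, with a log2 fold change from control of 1.08 (adjusted p = 0.0192). Yars, Iars and Lars, for tyrosine, isoleucine and leucine, had log2 fold changes of 0.89, 0.83 and 0.81 with adjusted p of 0.0158, 0.0329 and 0.0143, and in each every YAP 7 d liver was above every control. Rars (0.68) and Kars (0.63), for arginine and lysine, had adjusted p of 0.0761 and 0.108. At the other end, Eprs was level (0.03, 95% interval -0.37 to 0.43), and Aars and Tars were at -0.26 and -0.35.

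The lowest values at 7 days were those of Dars, Nars2 and Lars2, none of which passed the thresholds. Dars had 55.9, 55.0, 56.7 and 53.0 eRPKM in controls and 38.4, 36.9 and 38.2 at 7 days, with no overlap (log2 fold change -0.54, adjusted p = 0.0289). Nars2, the mitochondrial asparaginyl-tRNA synthetase, had 18, 14.3, 13.3 and 16.5 in controls and 9.45, 9.64 and 7.79 at 7 days (-0.76, adjusted p = 0.0254). Both had an SD at 7 days below that of any earlier group, 0.806 and 1.02 eRPKM. In YAP 3 d livers 1 and 4, the livers marked MF, Dars (77.1 and 64.4) and Nars2 (25.8 and 17.1) were higher than in livers 2 and 3 (48.8 and 44.0, and 13.3 and 11.7), while Sars2 was lower (1.44 and 1.77 against 6.44 and 6.35).

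Lars2 behaved unlike the other 35 genes. Its eRPKM were 23.1, 15.6, 33.1 and 57.3 in controls, 26.8, 20.7, 21.2 and 21.6 at 3 days, and 15.9, 14.4 and 16.1 at 7 days, with a log2 fold change of -0.88 at 7 days (adjusted p = 0.0468). The reads behind these values hardly varied, from 506 to 640 in all 11 libraries. Between the deepest control and the shallowest, total reads differed 4.39-fold and the reads of Lars2 1.20-fold, whereas those of the other 35 synthetases differed 3.8- to 11.6-fold (median 6.14). Albumin showed the same (1.28-fold, 2417 to 3102 reads), as did 202 of 5107 genes with at least 50 reads in the shallowest control, which differed under 2-fold. The eRPKM of Lars2 within the controls ran in the reverse order of library depth, and with log2 depth as a covariate its log2 fold change was -0.07. The cause was not tested.

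At 3 days none of the 36 passed the test, against 0.0421% of all genes called higher and 0% called lower. Under an unadjusted p of 0.05 there was 1 member, Mars2, and limma-voom on the recovered reads also called 0. No synthetase separated the 3-day livers from the controls without overlap, against 3.38% of all genes above and 2.25% below. The median log2 fold change was 0.03 over the 36 and 0.02 over all genes. The largest values were those of Pars2 (0.48), Mars2 (0.47) and Yars2 (0.43), all mitochondrial, with adjusted p of 0.436, 0.41 and 0.473. Yars2, the mitochondrial tyrosyl-tRNA synthetase, had 13.0, 11.3, 8.91 and 9.20 eRPKM in controls, 17.3, 11.1, 10.7 and 20.1 at 3 days, and 10.1, 8.89 and 7.67 at 7 days. Its 3-day values were high in livers 1 and 4 and within the control range in livers 2 and 3.

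Between 3 and 7 days, 2 of 36 were called, Vars (log2 fold change 1.69, SE 0.398, adjusted p = 0.00643) and Gars (1.28, SE 0.324, adjusted p = 0.00935), both higher. They are 5.56% of the set, against 14% of all genes called higher and 5.31% called lower. In 10 of 36 the YAP 7 d livers were all above the YAP 3 d livers (31.3% of all genes), and in 5 all below (13.8% of all genes). Without YAP 3 d liver 1, in which Vars and Gars were lowest, neither call held (log2 fold changes 1.32 and 1.02), nor did either without YAP 3 d liver 2 or 4 or any YAP 7 d liver. The comparisons of 7 days with control and with 3 days share the YAP 7 d livers.

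At 7 days the cytosolic enzymes had a larger median difference from control than the mitochondrial enzymes, while the balance within a liver overlapped between the groups. Of 20 cytosolic enzymes 3 were called higher (15%), with a median log2 fold change of 0.35, 17 above 0 and 13 above the median of all genes. These 20 include Gars and Kars (1.08 and 0.63), which serve both compartments. Of 16 mitochondrial enzymes 2 were called higher (12.5%), with a median of 0.21, 11 above 0 and 6 above the median of all genes. Of all genes 18% were called higher, close to both shares. The groups without overlap numbered 10 above and 1 below in the cytosol, and 4 above and 2 below in the mitochondrion, against 36.7% and 13.3% of all genes. With size factors or quantile normalization the mitochondrial median was -0.04 or -0.35 and the cytosolic median 0.09 or 0.32.

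The mean log2(eRPKM + 0.5) over the 20 cytosolic enzymes was 4.49 ± 0.238 in controls, 4.49 ± 0.242 at 3 days and 4.96 ± 0.248 at 7 days (SD, n = 4, 4 and 3). The same mean over the 16 mitochondrial enzymes was 3.23 ± 0.172, 3.32 ± 0.174 and 3.39 ± 0.0675. The difference within each liver, which scaling a whole library by 1 factor moves only through the pseudocount, was 1.21, 1.28, 1.41 and 1.16 in controls and 1.12, 1.19, 1.33 and 1.05 at 3 days. At 7 days it was 1.72, 1.37 and 1.62, so YAP 7 d livers 1 and 3 lay above all others and liver 2, marked MF, lay within the control range. The mean difference from control, 0.303, was 0.656 after quantile normalization. Lars2, whose reads hardly followed depth, enters the mitochondrial mean, and Gars and Kars, which serve both compartments, enter the cytosolic mean. On the same log2 scale the median of all genes tested was 3.1 ± 0.237 in controls, 3.14 ± 0.151 at 3 days and 3.61 ± 0.0418 at 7 days. That median, like the cytosolic mean, was thus higher at 7 days. In summed eRPKM the cytosolic enzymes had 537 ± 59.9, 537 ± 70.3 and 669 ± 110 in the 3 groups, and the mitochondrial enzymes 179 ± 5.51, 179 ± 10.9 and 169 ± 8.19, of which Lars2 is a large part in controls.

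**Figure D3:**
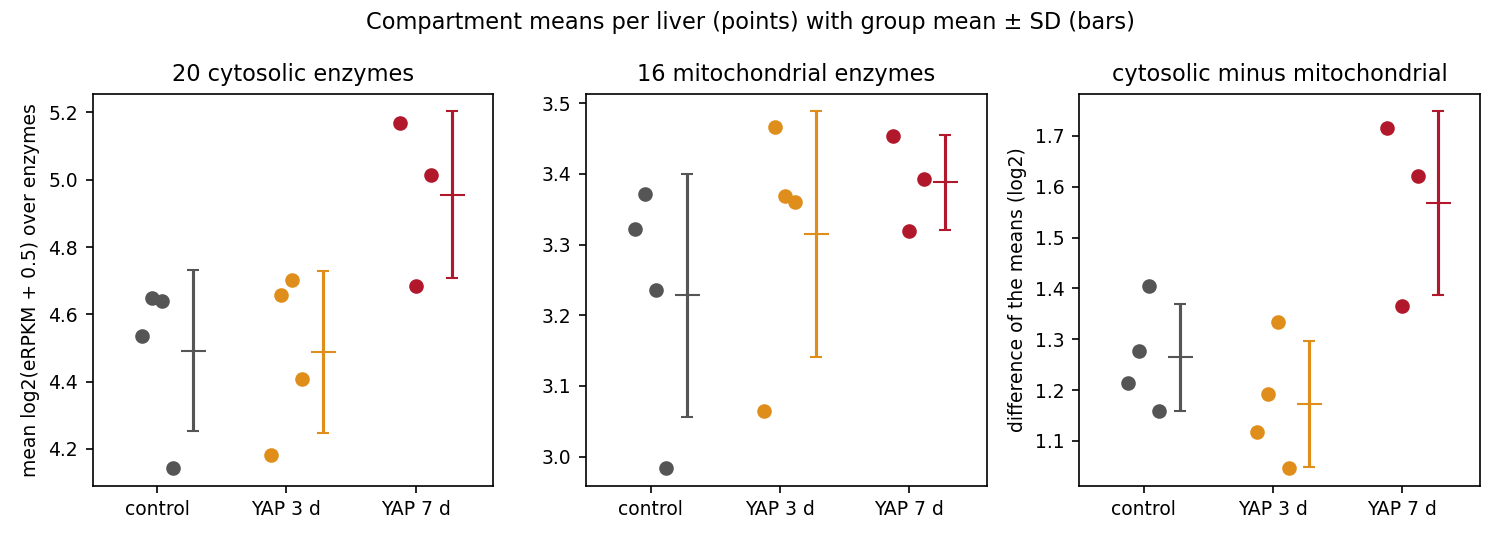
Mean log2(eRPKM + 0.5) per liver over the 20 cytosolic enzymes (left), over the 16 mitochondrial enzymes (middle) and their difference (right), with points for livers and a cross bar with whiskers for the group mean ± SD. The difference was 1.57 ± 0.181 at 7 days against 1.26 ± 0.106 in controls, with the lowest YAP 7 d liver at 1.37 and the highest control at 1.41.

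For 17 pairs of a cytosolic and a mitochondrial enzyme of the same amino acid, the log2 ratio within each liver was compared. In 8 pairs all YAP 7 d livers had a higher ratio than all controls and in 4 a lower one. For single genes, 36.7% of all genes tested stood above and 13.3% below in this way. The share among pairs of other genes was not computed. Eprs and Fars2 each enter 2 of the 17 pairs. The ratio was higher for leucine (by 1.69), phenylalanine with the alpha chain (1.44), valine (1.37), tyrosine (1.12), asparagine (1.0), isoleucine (0.72), phenylalanine with the beta chain (0.68) and histidine (0.64). The asparagine pair joined a cytosolic enzyme with a log2 fold change of 0.25 to the low value of Nars2. The leucine pair contained Lars2, whose reads hardly followed depth. The log2 fold change of Lars2 was -0.88, and -0.07 with log2 depth as a covariate. The ratio was lower for proline (-1.17), methionine (-0.88), serine (-0.75) and threonine (-0.68), which include the pairs of Pars2 and Mars2. For valine the ratios were 0.12, 0.43, 0.97 and 0.95 in controls and 2.15, 1.69 and 2.13 at 7 days (exact two-sided permutation p = 0.0286). For methionine they were 2.61, 2.51, 2.75 and 2.68 against 2.12, 1.62 and 1.54 (exact permutation p = 0.0286). This is the smallest p that 4 against 3 livers allow, and it is not adjusted over the 17 pairs. Across the 17 pairs the ratio at 7 days was thus higher in some and lower in others, without a share for other genes to set beside it. Already at 3 days 1 pair stood above all controls, phenylalanine with the beta chain (by 0.76), and 1 below, methionine (-0.57). For single genes at 3 days, 3.38% of all genes stood above and 2.25% below. Hars and Hars2 overlap each other in their exons on opposite strands, so reads of the overlap cannot be told apart. Whether such reads entered the histidine ratio was not tested.

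**Figure D4:**
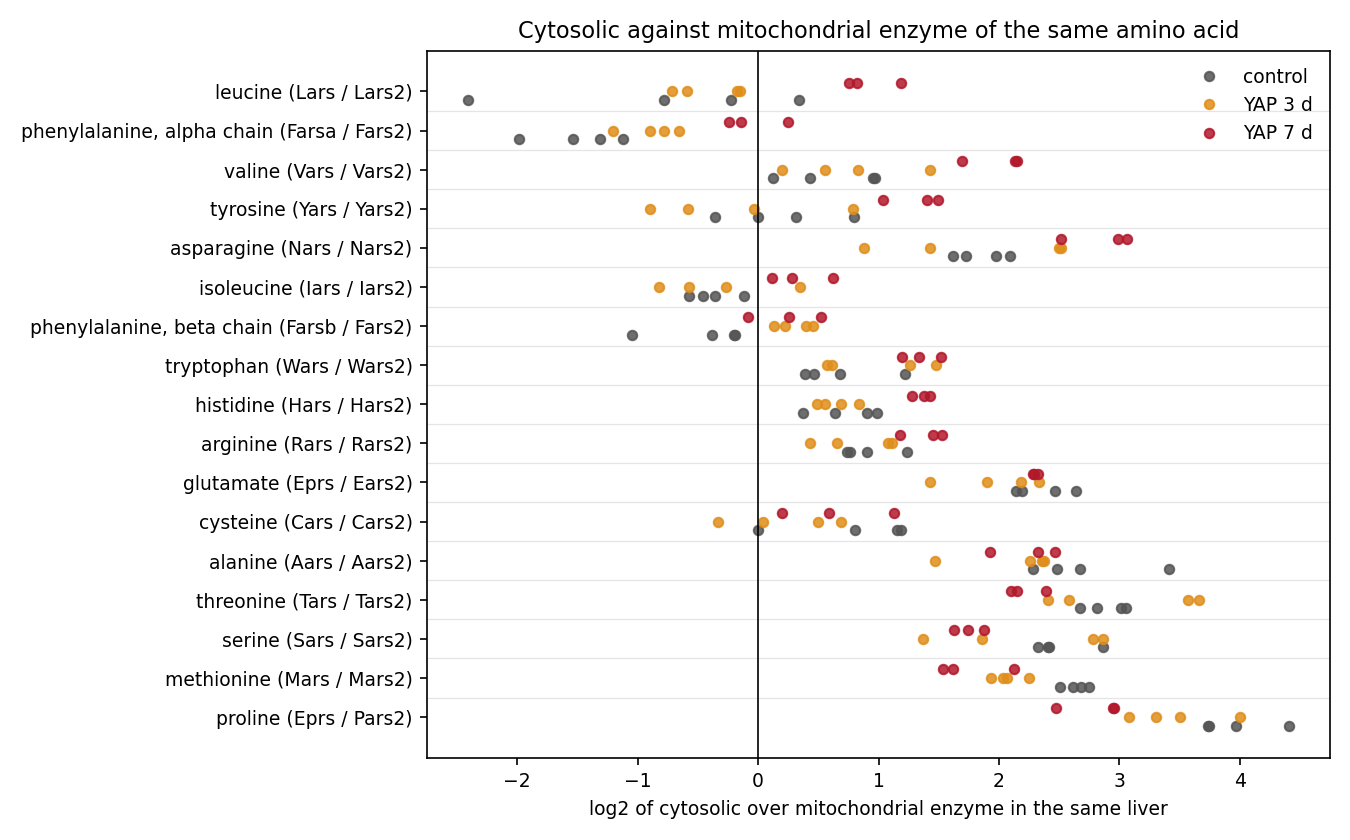
Log2 ratio of the cytosolic to the mitochondrial enzyme of the same amino acid in each liver (grey control, orange YAP 3 d, red YAP 7 d), ordered by the difference between 7 days and control. Red points lie right of grey points for 8 pairs, among them leucine, phenylalanine and valine, and left of them for threonine, serine, methionine and proline.

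The enzymes were also sorted by structure and partner, and 18% of all genes were called higher in the same comparison. Of the 8 enzymes of the multisynthetase complex none was called at 7 days, with 4 at an unadjusted p under 0.05, although their median log2 fold change was 0.48. Of the 12 free cytosolic enzymes 3 were called (25%), with a median of 0.32. Class I enzymes, which share a Rossmann-type catalytic fold, had 3 of 19 called and a median of 0.33, and class II enzymes 2 of 17 and 0.24. Among 14 partners and related proteins a single gene was called, Aimp2, a scaffold of the multisynthetase complex, which had 7.20 to 13.1 eRPKM in controls and 27.5, 18.9 and 29.3 at 7 days (log2 fold change 1.28, adjusted p = 0.00669). The scaffold Aimp1 was level (0.04). Xpot, the exporter of transfer RNA from the nucleus, was at 0.59 (adjusted p = 0.0157), and Dtd1, which removes D-amino acids from transfer RNA, at 0.93 (adjusted p = 0.0107).

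The genes that ATF4 is known to raise were of interest because many cytosolic synthetases are among its targets. Of 19 amino acid response genes 4 were called higher at 7 days (21.1%, against 18% of all genes), with a median log2 fold change of 0.57, and none at 3 days, where 4 had an unadjusted p under 0.05. Psat1 and Psph, enzymes of serine synthesis, rose by 2.77 and 1.43 (adjusted p = 6.04e-05 and 0.00186). Psat1 had 0.781 to 1.43 eRPKM in controls, 0.875 to 1.46 at 3 days, and 18.4, 6.02 and 8.22 at 7 days. Ddit4, an inhibitor of mTORC1, rose by 3.37 (adjusted p = 7.92e-06), with 1.84 to 4.19 eRPKM in controls and 48.4, 32.8 and 29.9 at 7 days. Slc3a2, the heavy chain of several amino acid exchangers, rose by 0.99 (adjusted p = 0.00834). Mthfd2, an enzyme of mitochondrial folate metabolism, Sesn2, an inhibitor of mTORC1, and Ddit3, a transcription factor, were at 1.64, 0.99 and 0.83 (adjusted p = 0.0104, 0.0175 and 0.0105), with every YAP 7 d liver above every control. Asns, asparagine synthetase, was at -0.18 with a 95% interval of -1.92 to 1.55, and Trib3 at -0.57, both with overlapping groups. These were picked after their values were seen. The mRNA of Atf4 itself, whose control is mainly translational, was at -0.27 (adjusted p = 0.178), with every YAP 7 d liver below every control. Among the 13 cytosolic synthetases listed as ATF4 targets 2 were called, with a median of 0.29, and among the 7 others 1, with a median of 0.38.

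**Figure D5:**
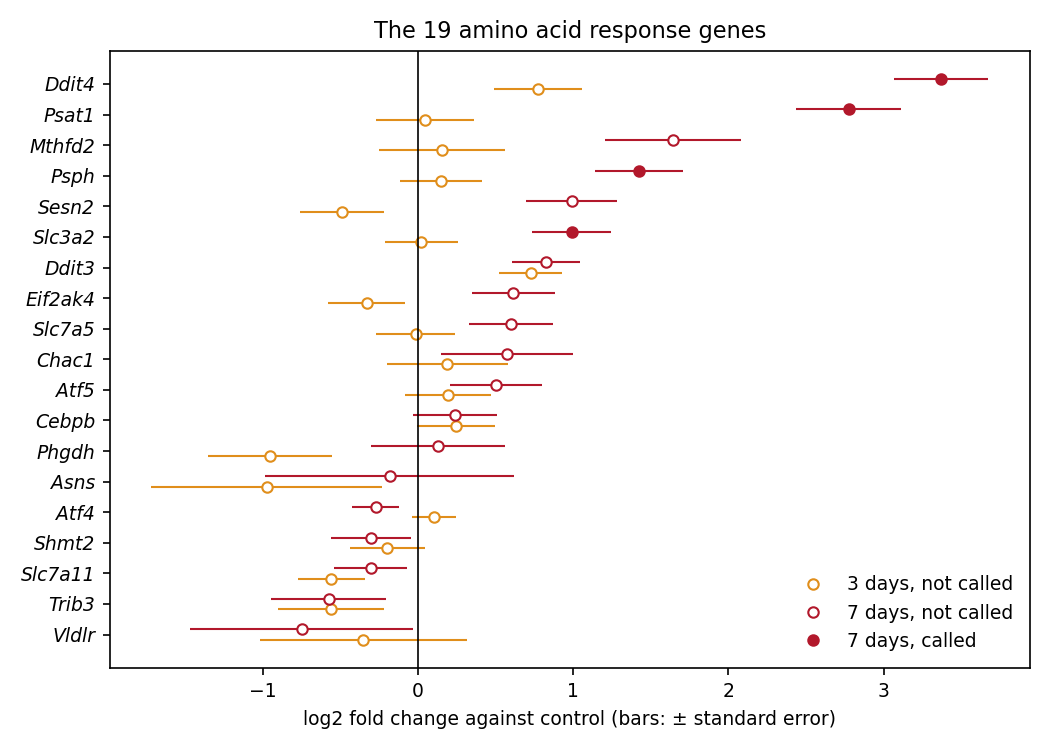
Log2 fold change against control of the 19 amino acid response genes at 3 days (orange) and 7 days (red) on the log2(eRPKM + 0.5) scale, with bars of 1 standard error and filled points for called genes. Ddit4, Psat1, Psph and Slc3a2 are filled at 7 days, while Asns, Atf4, Shmt2, Slc7a11, Trib3 and Vldlr lie below 0.

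Other parts of the translation machinery had medians below that of all genes at 7 days, when 18% of all genes were called higher and 5.77% lower. Of 5 cytosolic elongation factors none was called, with 1 at an unadjusted p under 0.05, and their median was -0.14. Of 4 mitochondrial elongation factors none was called either, with 1 at an unadjusted p under 0.05 and a median of 0.06, and their values ran from -0.30 (Gfm1) to 0.60 (Tsfm). Of 81 cytosolic ribosomal protein genes tested 0 were called higher and 1 lower, with a median of -0.35. Summed over all 83 such genes, the level was 7276 to 14690 eRPKM in controls and 7023 to 8202 at 7 days, with overlap. Of 75 mitochondrial ribosomal protein genes 1 was called higher and 1 lower, with a median of -0.04. Eef1a1, which carries charged transfer RNA to the ribosome, is 1 of the genes whose reads hardly followed depth (1.27-fold between the deepest and the shallowest control). Reads of Eef1g, Eef2 and Eef1b2 differed 2.37-, 2.71- and 2.99-fold and those of Eef1d 4.79-fold, against 4.39-fold for total reads. The part of depth in these medians was not tested.

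Marker mRNA of several cell types differed between groups, and in whole tissue fewer cells of a type cannot be told apart from less RNA per cell. At 7 days 4 of 8 hepatocyte markers fell (median -0.99, summed level 1655 to 4757 eRPKM in controls and 1142 to 1332 at 7 days), and these markers include albumin and others whose reads hardly followed depth. Macrophage markers rose in 3 of 5 cases (median 1.81, summed level 140.5 to 267.5 against 488.3 to 563.6) and cycling cell markers in 6 of 6 (median 3.62, 10.35 to 27.59 against 171.4 to 232.9). Of the other lists 1 of 6 cholangiocyte and 1 of 5 endothelial markers were called higher, and none of 5 stellate cell or 6 lymphocyte markers was called. In the same comparison 18% of all genes were called higher and 5.77% lower. None of these markers was at 0 in every liver. Whether the synthetase differences lie in hepatocytes or in other cells was not tested.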

How the data were processed

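Total RNA from homogenized livers was made into libraries with the TruSeq RNA v2 kit, which keeps no strand. Per the labels and the study's methods, the authors aligned read pairs to mm9 with TopHat2 2.0.8 without strand information. The submitters' processing notes also name SAMtools, featureCounts 1.4.5-p1 and DESeq2. The handling of duplicate reads is not given in the sources used here. The deposited values are eRPKM, a kind of RPKM, per gene and liver, and 3 further columns hold the authors' own comparison of 7 days with control (base mean, log2 fold change, adjusted p) and were not used.

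From the values, whole reads were recovered: 100% of 177553 values above 0 were within 0.1 of a whole read. Genes reaching 0.5 eRPKM in 3 or more livers were tested on log2(eRPKM + 0.5) with limma 3.58.1 (R 4.3.3), all 11 livers in 1 fit with trended variance, and Benjamini-Hochberg adjustment over 14244 genes. Calls needed an adjusted p under 0.01 together with a log2 fold change beyond 0.5 in either direction. A fold change on this scale understates the change of low genes. Exact permutation tests were two-sided. The procedure was tested on simulated data.

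Groups came from the sample labels. The p-values set each group difference against the spread between these livers and take the livers as independent. Nothing says whether livers shared a litter, so that independence is not known. The members and the lists of related genes were chosen with earlier results of these data known. Values by liver were to be given for called members of 7 days, the 3 largest changes at 3 days, and the highest and lowest member of each compartment; others were named after their values were seen. Gene positions are those of GENCODE M1 on mm9, and promoters those of RefSeq on GRCm38.p6. Alternatives changed the pseudocount, filter, scaling, threshold, covariates and livers.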

Additional observations from a re-analysis of the deposited data

Results flagged for a closer look

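Among 34 sets of 4 livers examined, 4 held a value whose gap to its nearest neighbour passed Dixon's limit as a share of the range; chance alone gives about 1 in 20. Control liver 4, the shallowest library, was low for Lars (10.4 eRPKM against 19.1 to 19.8, gap 0.919 of the range) and for Mars2 (2.96 against 4.23 to 4.47, gap 0.84). Without that liver the log2 fold changes at 7 days were 0.59 for Lars and 1.04 for Mars2. YAP 3 d liver 3 was high for Yars (18.9 against 10.5 to 11.4, gap 0.897), and YAP 3 d liver 1, the shallowest of its group, was high for Lars2 (26.8 against 20.7 to 21.6, gap 0.86).

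YAP 7 d livers differed from YAP 3 d livers in Gars, by a log2 fold change of 1.28 (adjusted p = 0.00935), and in Vars, by 1.69 (adjusted p = 0.00643). Both tests were by limma with Benjamini-Hochberg adjustment. These groups also differed in days on doxycycline food, which cannot be told apart from days of YAP. All 3 YAP 7 d livers were above all 4 YAP 3 d livers in both genes. Gars was called in 6 and Vars in 12 of 24 alternatives that kept the thresholds, with adjusted p from 0.00168 to 0.0606 and from 0.000446 to 0.0429.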

How the results depend on the processing

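Under 24 alternatives that kept the thresholds, Mars2 was called at 7 days in 21, Vars and Pars2 in 17 each, Wars in 14 and Farsa in 10, all with positive values throughout. The 5 members called at 7 days became 12 when an adjusted p under 0.05 sufficed at any fold change, 2 with log2 Xist as a covariate, 1 in female livers only and 0 with log2 depth as a covariate. Leaving out 1 liver gave 1 to 7. It gave 3 without control 1 or YAP 7 d liver 2, 2 without control 4, and 1 without YAP 7 d liver 1 (Mars2) or 3 (Pars2). Between 3 and 7 days 2 members were called (Vars, Gars), against 1 with a pseudocount of 0.1 or without a filter (Vars), 1 with size factors (Hars2, lower) and 1 with only the 2 groups compared (Lars). There were 0 with log2 Xist, in female livers, without the livers labelled MF and with log2 depth (12, 13, 8 and 12 at an unadjusted p under 0.05), and 5 after quantile normalization, 12 at an adjusted p under 0.05 and 4 by limma-voom on the recovered reads. Leaving out 1 liver gave 0 to 6, and 0 without any 1 of the YAP 7 d livers or of YAP 3 d livers 1, 2 and 4, 1 without control 1, 2 or 3, 4 without control 4 and 6 without YAP 3 d liver 3. At 3 days the count was 0 under every alternative run, with 0 to 4 at an unadjusted p under 0.05.

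The mitochondrial median at 7 days, 0.21, was -0.0447 with size factors, -0.35 after quantile normalization and -0.13 with log2 depth, and 0.0286 to 0.356 without 1 liver, lowest without control 4. The cytosolic median, 0.354, was 0.089 with size factors, 0.161 with log2 depth and 0.308 to 0.457 without 1 liver. The difference between compartments at 7 days against control, 0.303, was 0.656 after quantile normalization and 0.229 to 0.404 without 1 liver. With size factors 8 members changed sign, among them Nars (-0.0227), and after quantile normalization 11. Of all genes, 2561 were called higher and 822 lower as deposited, 1951 and 1254 with size factors, and 1857 and 1821 after quantile normalization. Size factors called Vars, Mars2 and Pars2 higher and Fars2 lower, and quantile normalization Vars higher and Dars, Fars2, Hars2 and Nars2 lower.

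The replicate number as a block gave 2 calls at 7 days (Vars, Mars2) and 1 between 3 and 7 days (Vars). The numbers do not pair the livers: deviations of same-numbered livers correlated at -0.222 to 0.269 (n = 10 pairs) and those of others at -0.275 to 0.238 (n = 30). The female, MF, depth and limma-voom alternatives were chosen after seeing the data. The planned edgeR and DESeq2 fits were not run; limma-voom was the fit made on recovered reads. The cause of these shifts was not tested.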
